A study of Caenorhabditis elegans with 21 samples.

Results

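The cell cycle of *Caenorhabditis elegans* oocytes and embryos is driven by cyclin-dependent kinases (CDKs), which are active only when bound to a cyclin. CDK-1 with B-type cyclins drives entry into meiotic and mitotic M phase, CDK-2 with cyclin E and CDK-4 with cyclin D act in G1 and S phase, and WEE-1.3, a membrane-associated kinase of the Myt1 type, holds CDK-1 inactive in arrested oocytes. B-type cyclins are destroyed at the exit from M phase by the anaphase promoting complex (APC/C), a ubiquitin ligase for which FZY-1, the worm Cdc20, is an activator. OMA-1, an RNA-binding protein of oocytes with CCCH zinc fingers, acts on maternal mRNAs and is normally removed once the zygote has divided.

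Described here are 10 genes taken by name and mapped to WormBase gene identifiers: the kinases *cdk-1* and *cdk-2*, the A-type cyclin *cya-1*, the B-type cyclins *cyb-1*, *cyb-2.1*, *cyb-2.2* and *cyb-3*, cyclin E (*cye-1*), cyclin D (*cyd-1*) and *wee-1.3*. All 10 have a row among the 46891 genes of the embryo count tables, and 9 have one among the 18887 genes of the RIP-seq files, where *cya-1* is not listed. Early embryos came from bleached, synchronized young adults grown at 25 °C, of the wild type strain N2, the mutant *oma-1(zu405)* and a double mutant, *fzy-1(D433N);oma-1(zu405)*, which has a point mutation in *fzy-1* beside the same *oma-1* allele. RIP-seq, the sequencing of RNA bound by beads that capture green fluorescent protein (GFP), was done on 100000 young adults per sample, also kept at 25 °C, of 3 strains. Strain *oma-1-gfp* carries wild type OMA-1 tagged with GFP at its own locus, *oma-1ts-gfp* carries the tag on OMA-1 with the substitution P240L (the change in *zu405*), and *fzy-1;oma-1ts-gfp* carries *fzy-1(D433N)* in addition. All 3 strains carry the tag, and no untagged animals were analysed here, so RNA that binds the beads without OMA-1 was not measured.

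Each embryo genotype had 2 libraries in the tables, with 3599426 to 18815357 counts. Those of N2 are called A1 and A2, the *oma-1(zu405)* pair is C1 and C2, and the double mutant has D1 and D3. Nothing in the labels says that the samples came from separate cultures, so p-values measure the spread between these libraries, which may be technical. Library D1 stood apart, with 17.5% of its counts in 10 genes against 2.97% to 7.54% in the other 5 libraries, 5.98% in ribosomal RNA genes against at most 1.04%, and a Spearman correlation across genes of 0.774 with D3, against 0.993 within N2 and 0.983 within *oma-1(zu405)*. Each RIP-seq strain had 2 RIP and 2 input libraries. Some marker lists differed between the embryo libraries, and not always by genotype. The summed level of 8 oocyte markers was 122 normalized CPM (a gene's counts scaled to the library's total times its TMM factor) in both N2 libraries, between 1715 and 1723 in C1 and C2, 907 in D1 and 123 in D3. The D1 sum came mostly from *puf-5* (411), *oma-2* (277) and *puf-11* (185). In D1 *rme-2* (4.32), *lin-41* (9.27) and *cbd-1* (19.2) stood near their A2 values of 3.17, 10.4 and 20.5. *perm-2* and *perm-4* reached at most 1.85 in any library. The muscle myosin gene *unc-54*, whose product marks differentiated muscle of later stages, stood at 250.3 (A1), 281 (A2), 117 (C1), 154 (C2), 33.4 (D1) and 239.9 (D3) normalized CPM, and was thus present in libraries labelled early embryo. The summed level of 5 muscle markers, *unc-54* among them, was 1011 (A1), 1121 (A2), 607 (C1), 700 (C2), 338 (D1) and 897 (D3). Within this list *lev-11* was not lower in *oma-1(zu405)*, at 246 and 261 in N2 and 257 and 267 in C1 and C2. The summed level of 10 early zygotic markers was 163 (A1), 165 (A2), 220 (C1), 232 (C2), 717 (D1) and 162 (D3), with *vet-2* alone at 510 in D1. Beside each embryo result given here these markers differed in the same libraries, and their part in it was not tested. In bulk RNA, fewer cells of a type and less RNA per cell cannot be told apart. *oma-1* mRNA itself was at 101 (A1), 91.0 (A2), 750.1 (C1), 664 (C2), 187 (D1) and 124 (D3) normalized CPM. Since both mutations are point mutations, mRNA level does not check the labels.

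The genes lie on 5 chromosomes. In the WBcel235 annotation, *cdk-1* (WBGene00000405) spans III:9747472-9748852 and *cya-1* (WBGene00000863) III:9106699-9109272. The B-type cyclins lie apart, *cyb-1* (WBGene00000865) at IV:10735216-10737177, *cyb-2.1* (WBGene00000866) at IV:10985985-10987426, *cyb-2.2* (WBGene00000867) at I:4114861-4116370 and *cyb-3* (WBGene00000868) at V:15395696-15397353. *cdk-2* (WBGene00019362) spans I:3410013-3416368, *cye-1* (WBGene00000871) I:6780799-6784397, *cyd-1* (WBGene00000870) II:12980591-12993117 and *wee-1.3* (WBGene00006940) II:9713737-9716467. *cdk-2* overlaps the antisense RNA gene *anr-45* over 1121 bases and *cya-1* overlaps the protein-coding gene *dos-1* over 107 bases, and as the counting is not stated to use strand, their reads cannot be fully told apart from those of these neighbours. *cyb-2.1* and *cyb-2.2* are close paralogs that may share reads, so the split of reads between them is uncertain. The deposited germline classes list *cyb-2.1*, *cyb-2.2*, *cyb-3*, *cye-1* and *cyd-1* as oogenic, *cyb-1* as spermatogenic, *cdk-1*, *cdk-2* and *wee-1.3* as gender neutral, and give *cya-1* none.

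In N2 embryos the members differed widely in level. Scaled by exon length, in normalized CPM per kilobase (RPKM), *cyb-3* was highest at 505 in A1 and 543 in A2, followed by *cyb-1* at 195 and 206, *cdk-1* at 122 and 114, and *cya-1* at 100.2 and 101. Next came *cyd-1* (47.2 and 55.4), *cyb-2.2* (46.8 and 37.1), *wee-1.3* (27.8 and 31.6), *cyb-2.1* (25.11 and 21.1) and *cye-1* (17.4 and 19.1), with *cdk-2* lowest at 8.59 and 9.37. No neighbours in this order overlapped, but from *cyd-1* to *cye-1* each gap was smaller than the difference between the 2 libraries of a gene beside it.

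Setting *oma-1(zu405)* embryos against N2 compares mRNA of embryos whose OMA-1 protein is not removed on time with that of wild type embryos. The 2 groups also differed in the oocyte and muscle markers given above. The M phase genes, *cdk-1* and the 4 B-type cyclins, rose the most, 4.66-fold to 7.67-fold, while cyclin A, cyclin E and *cdk-2* stayed close to their N2 levels or changed by less than 2-fold on the same scale. With edgeR's quasi-likelihood test on TMM-normalized counts, 5 of the 10 genes were higher with an adjusted p under 0.05 and a log2 fold change over 2, beside 11.6% of the 12520 genes tested called higher and 22.6% called lower. By adjusted p alone, 9 of 10 were higher and 0 lower, beside 34.8% and 42.4% of all genes. The median log2 fold change of the 10 genes was 1.88, and that of all genes tested was -0.24.

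**Figure D1:**
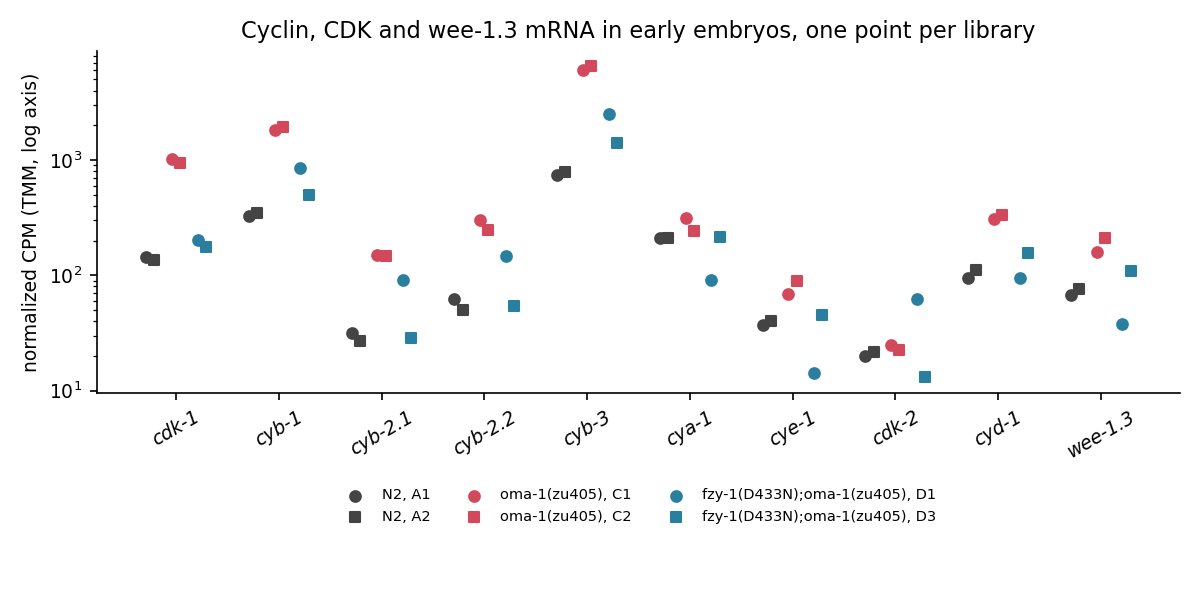
Normalized CPM (TMM, log axis) of the 10 genes in each embryo library, with circles and squares for the 2 libraries of a genotype. For *cdk-1* and the B-type cyclins both *oma-1(zu405)* libraries lie above both N2 libraries, and D1 and D3 lie apart from each other for most genes.

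*cdk-1*, which encodes the M phase kinase, was at 145 and 135 normalized CPM in N2 (A1 and A2) and at 1029 and 949 in *oma-1(zu405)* (C1 and C2). Both mutant libraries lay far above both N2 libraries, with a log2 fold change of 2.74 (SE 0.16, adjusted p = 2.73e-15, edgeR). *cyb-3*, a B-type cyclin needed for chromosome segregation in early embryos, was at 738 and 794 normalized CPM in N2 and at 6009 and 6491 in *oma-1(zu405)*, a log2 fold change of 2.94 (SE 0.17, adjusted p = 2.58e-15, edgeR). Per length, in normalized RPKM, it was the highest of the 10 genes in each of the 6 libraries. *cyb-1*, the other main B-type cyclin, rose from 329.7 and 349 to 1836 and 1950.2 normalized CPM, a log2 fold change of 2.39 (SE 0.16).

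The paralogous pair *cyb-2.1* and *cyb-2.2* moved by nearly the same amount. *cyb-2.1* was at 31.8 and 26.8 normalized CPM in N2 and at 150.4 and 147 in *oma-1(zu405)*, and *cyb-2.2* at 62.5 and 49.5 against 301 and 247. The log2 fold changes were 2.26 (SE 0.16) and 2.22 (SE 0.17), which differ by less than 1 SE, and the groups did not overlap for either gene.

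The genes of G1 and S phase and the inhibitory kinase were less changed. *cyd-1*, whose product partners CDK-4 to drive cells out of G1, was at 94.9 and 111 normalized CPM in N2 and at 306 and 335 in *oma-1(zu405)*, a log2 fold change of 1.55 (SE 0.15). *wee-1.3* was at 66.8 and 76.0 normalized CPM in N2 and at 159.9 and 211 in *oma-1(zu405)*, a log2 fold change of 1.27 (SE 0.15, adjusted p = 1.27e-08, edgeR). The target of WEE-1.3, *cdk-1*, showed a larger fitted log2 fold change than *wee-1.3* itself.

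*cye-1*, the partner of CDK-2 in S phase entry, was at 36.7 and 40.4 normalized CPM in N2 and at 68.4 and 89.5 in *oma-1(zu405)*, a log2 fold change of 0.93 (SE 0.17). *cya-1* was at 209 and 210.1 against 313 and 244 (0.35, SE 0.16, adjusted p = 0.0465, edgeR), and *cdk-2* at 20.0 and 21.8 against 24.8 and 22.7 (0.14, SE 0.21, adjusted p = 0.54, edgeR). The direction of these last 3 genes depended on the scale. When libraries were scaled by total counts in place of TMM, the median of all genes tested lay 1.27 lower on the log2 scale, and *cye-1* (-0.33), *cya-1* (-0.91) and *cdk-2* (-1.12) were lower in *oma-1(zu405)*, each with an adjusted p under 0.05.

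**Figure D2:**
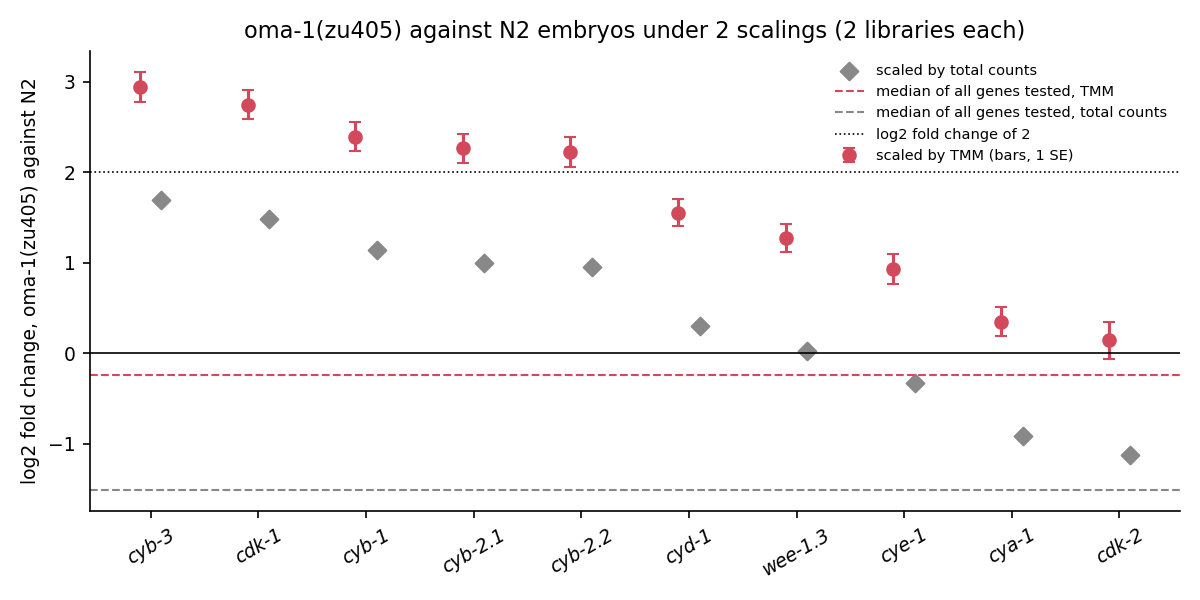
Log2 fold change of each gene in *oma-1(zu405)* against N2 embryos, scaled by TMM (circles, bars of 1 SE) and by total counts (diamonds). Dashed lines give the median of all genes tested, -0.24 under TMM and -1.51 under total counts, and all 10 genes lie above it under both scalings.

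Scaled by total counts, *cyb-3* (1.69), *cdk-1* (1.49), *cyb-1* (1.14), *cyb-2.1* (1.00), *cyb-2.2* (0.96) and *cyd-1* (0.30) stood higher in *oma-1(zu405)* with an adjusted p under 0.05 in edgeR, *wee-1.3* stood at 0.02, and none of the 10 passed a log2 fold change of 2. Thus 6 genes were higher and 3 lower by adjusted p on that scale, beside 15.5% and 70.3% of all genes, and 2.4% and 40.7% of all genes passed both thresholds. In a single fit of all 6 embryo libraries, which takes up the spread between D1 and D3, the 5 called genes had log2 fold changes of 2.29 to 3.03 with adjusted p-values of 0.0565 to 0.0692 (edgeR), and none was called, beside 0.0% of all genes in either direction. Without library A2 *cyb-2.1* (1.97) and *cyb-2.2* (1.88) fell just under the fold threshold and 3 genes were called, beside 11.3% of all genes, and without C1 *cyb-2.2* stood at 1.98.

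The make-up of the family within each library does not depend on how libraries are scaled. The 10 genes together took 0.300% (A1), 0.316% (A2), 0.714% (C1), 0.723% (C2), 0.185% (D1) and 0.414% (D3) of all counts. Of the summed counts of the 10 genes *cyb-3* took 42.6% and 43.8% in N2 (exact 95% binomial intervals 42.2% to 43.0% and 43.1% to 44.5%, which cover counting error only) and 58.9% and 60.7% in *oma-1(zu405)*. The share of *cyb-3* was thus larger in both mutant libraries, by more than the difference between libraries of a genotype.

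The share of *cyb-1* hardly moved, at 19.02% and 19.2% in N2 and 18.0% and 18.2% in *oma-1(zu405)*. That of *cya-1* was 12.04% and 11.6% in N2 and 3.07% and 2.28% in *oma-1(zu405)*, that of *wee-1.3* 3.86% and 4.19% against 1.57% and 1.97%, and that of *cye-1* 2.12% and 2.23% against 0.671% and 0.838%. *cyd-1* went from 5.47% and 6.15% to 3.00% and 3.13%. In counts, the family was therefore made up more of *cyb-3* and less of cyclins A, D and E and *wee-1.3* in *oma-1(zu405)*. For each count of *cya-1* there were 0.693 and 0.642 counts of *cdk-1* in N2 and 3.29 and 3.89 in *oma-1(zu405)*, a ratio chosen after its values were seen and given without a test.

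**Figure D3:**
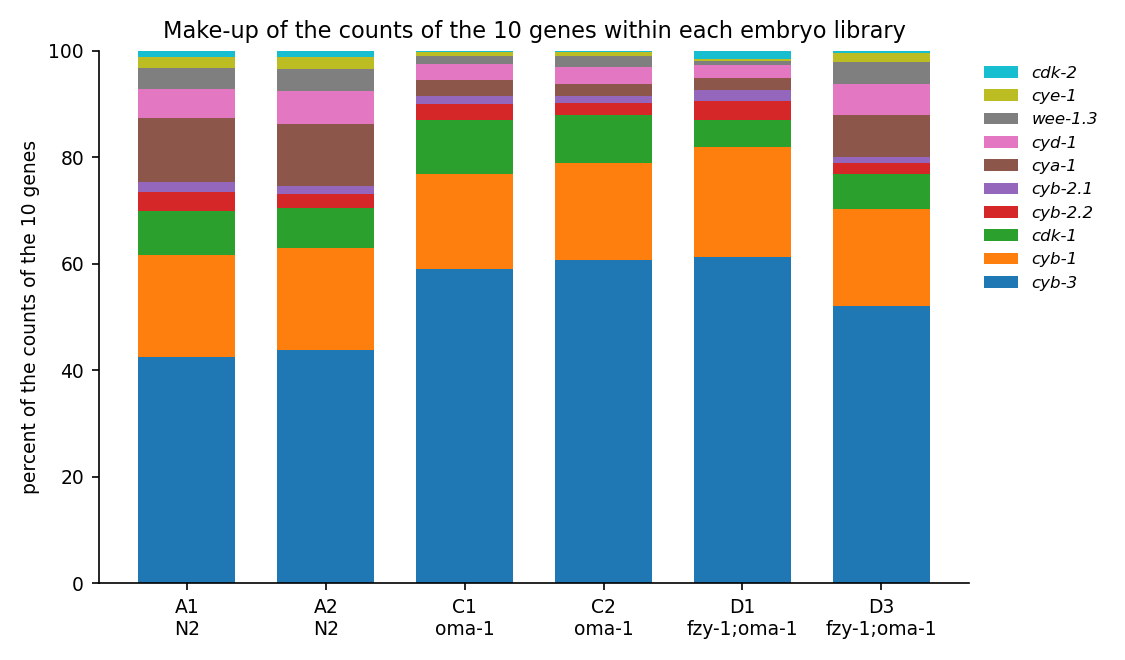
Share of each gene in the summed counts of the 10 genes within each embryo library, as stacked bars from 0 to 100%. *cyb-3* takes 42.6% and 43.8% in A1 and A2, 58.9% and 60.7% in C1 and C2, 61.2% in D1 and 52.0% in D3.

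The double mutant asks whether *fzy-1(D433N)* changes these levels when the stable OMA-1 is present. Its 2 libraries disagreed for most of the 10 genes. D3 lay near N2 for *cyb-2.1* (28.4 normalized CPM), *cyb-2.2* (53.98), *cya-1* (215), *cye-1* (45.7) and *cdk-1* (176), and above it for *cyb-3* (1395) and *cyb-1* (492). D1 held more of the B-type cyclins, with 2514 normalized CPM of *cyb-3*, 854 of *cyb-1*, 91.4 of *cyb-2.1* and 147 of *cyb-2.2*, and less of *cya-1* (90.8), *cye-1* (14.2) and *wee-1.3* (37.7, against 108 in D3), but by total counts it held less than D3 of every one of the 10 genes except *cdk-2*. For *cdk-1* the libraries were close, at 202 in D1 and 176 in D3, below C1 and C2 and above A1 and A2, while by total counts D1 (90.8 CPM) lay below and D3 (271 CPM) just above the N2 libraries (250.2 and 234.9 CPM).

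The same disagreement stood within the family. *cya-1* took 2.21% of the family's counts in D1, as in *oma-1(zu405)*, and 8.02% in D3. *wee-1.3* took 0.917% in D1 and 4.03% in D3, the latter between the N2 values of 3.86% and 4.19%. D1 rested on 6649 counts over the 10 genes, among them 23 of *cye-1* and 61 of *wee-1.3*, against 28470 in D3.

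Against N2, none of the 10 genes passed an adjusted p of 0.05 in edgeR (adjusted p 0.665 to 0.988), beside 0.0% of all genes called. An unadjusted p under 0.05 was found for 0 of them, beside 506 of the 12684 genes tested. DESeq2 called 0 of the 10 as well, beside 2.92% of all genes called higher and 0.118% called lower. The log2 fold changes ranged from -0.46 (SE 0.68) for *cya-1* to 1.305 (SE 1.05) for *cyb-3*, the one gene whose direction held under every alternative run. The standard errors of 0.52 to 1.05 were larger than those of 0.15 to 0.21 for *oma-1(zu405)* against N2, and both contrasts use the same N2 libraries.

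Against *oma-1(zu405)*, none of the 10 genes passed in edgeR (adjusted p 0.585 to 0.744), beside 0.0% of all genes. An unadjusted p under 0.05 was found for 1 of them, beside 861 of the 10477 genes tested. DESeq2 called 0 of the 10, beside 0.22% of all genes called higher and 0.0191% called lower. The gene with an unadjusted p under 0.05 was *cdk-1*, with a log2 fold change of -2.23 (SE 0.73, unadjusted p = 0.0271, adjusted p = 0.585, edgeR). The other 8 cyclin and *wee-1.3* genes stood between -0.68 (*cya-1*) and -1.52 (*cyb-3*), and *cdk-2* at 0.78, with a reversed direction once D1 was left out (-0.68). The count of calls turned on single libraries. Without D1, *cdk-1* (-2.30), *cyb-2.1* (-2.198) and *cyb-2.2* (-2.15) were called lower than in *oma-1(zu405)*, beside 8.17% of all genes, and without D3 *cdk-1* (-2.08), *cye-1* (-2.24) and *wee-1.3* (-2.07) were, beside 6.95%. In both fits the lone double mutant library is assumed to vary like the *oma-1(zu405)* libraries, and only *cdk-1* was called in both.

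Other genes that act on these kinases were read from lists made with earlier results of these data known. Of 22 regulators of the cell cycle CDKs, 21 were tested in *oma-1(zu405)* against N2, where 15 were higher and 3 lower by adjusted p in edgeR, with a median log2 fold change of 1.07, beside 34.8% and 42.4% of all genes. Under total counts the balance turned, with 8 higher and 9 lower by adjusted p, 0 called higher, 3 called lower and a median of -0.19. Of all genes, 15.5% and 70.3% were higher and lower by adjusted p there, and 2.4% and 40.7% were called. Called higher under TMM, beside 11.6% of all genes, were *plk-2* (3.10, SE 0.18), *cdc-25.1* (2.73, SE 0.15) and *plk-1* (2.52, SE 0.16). Of these *plk-1* and *plk-2* encode Polo-like kinases and *cdc-25.1* a phosphatase that activates CDKs. *cdc-25.1* stood at 79.7 and 72.9 normalized CPM in N2 and 535 and 541 in *oma-1(zu405)*. *wee-1.1*, a second gene of the Wee1 family that is transcribed in the early embryo, was called lower (-2.31, SE 0.42), at 6.21 and 5.09 normalized CPM in N2 against 1.29 and 0.743. The 2 genes of this family thus differed in direction under TMM, where *wee-1.3* stood at 1.27, and under total counts *wee-1.1* stood at -3.60 and *wee-1.3* at 0.02.

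*cdk-4*, the partner of cyclin D, rose by 1.31 (SE 0.17), the CDK-binding protein gene *cks-1* by 1.66 (SE 0.15), and the CDK inhibitor genes *cki-1* and *cki-2* by 1.63 and 1.74, all on the log2 scale under TMM, and by 0.05, 0.40, 0.38 and 0.48 under total counts, where *cdk-4* did not pass. *fzy-1* stood at 155 and 152 normalized CPM in N2 and at 393 and 404 in *oma-1(zu405)* (1.29, SE 0.14), and at 0.04 under total counts. Among 14 other cyclins and CDKs, which act mainly in transcription or in neurons, 5 were higher and 2 lower by adjusted p, beside 34.8% and 42.4% of all genes. Their median was -0.05, and *cdk-5* (2.03) and *ccnk-1* (2.02) were called higher, beside 11.6% of all genes called higher. Under total counts 3 were higher and 11 lower by adjusted p, beside 15.5% and 70.3% of all genes, with a median of -1.32. On that scale 2 were called lower, beside 40.7% of all genes, and both calls of higher genes ended (*cdk-5* 0.76, *ccnk-1* 0.75). In both double mutant comparisons, 0 genes of either list passed.

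In young adults the levels were read from the input libraries, in RPKM as deposited and divided by 1000. The input of *oma-1-gfp* held 575 and 492 RPKM of *cyb-3*, 191 and 172 of *cyb-1*, 152 and 139.7 of *cyb-2.1*, and 147 and 154 of *cyb-2.2*. Next came *wee-1.3* (87.5 and 68.8) and *cdk-1* (81.2 and 74.6), whose libraries overlapped, then *cye-1* (33.1 and 28.1) and *cyd-1* (3.81 and 4.18). The paralogs *cyb-2.1* and *cyb-2.2* overlapped in level here, and *cyb-3* was again highest. *cdk-2* lay between 0.0774 and 2.37 RPKM over the 12 libraries and reached 1 RPKM in 1 of them, so it was not tested. *cya-1* is not listed in any of the 12 libraries although it stood at 361 and 366 CPM by total counts in the N2 embryos, and 24 of 4586 protein-coding genes (0.523%) with a mean of at least 50 CPM over the N2 libraries are likewise not listed. The remaining 8 genes were tested.

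RIP against input asks which mRNAs are captured with OMA-1. *cdk-1* mRNA was lower in the RIP than in the input in all 3 strains, by about 2-fold, *cyb-1* and *cyd-1* lay above their inputs by less than the fold threshold, and the other 5 genes lay between. With limma on log2(RPKM + 1), 0 of 8 genes were called higher (adjusted p under 0.05 and log2 fold change past 1), beside 9.12% of all genes in *oma-1-gfp*, 6.32% in *oma-1ts-gfp* and 9.14% in *fzy-1;oma-1ts-gfp*. Called lower were 1, 0 and 1 of 8, beside 19.4%, 21.2% and 21.0%. The members' median log2 fold changes were -0.40, -0.08 and -0.34, and those of all genes -0.37, -0.34 and -0.41. *oma-1* mRNA itself stood at 1.63, 0.95 and 1.77 in the 3 strains.

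**Figure D4:**
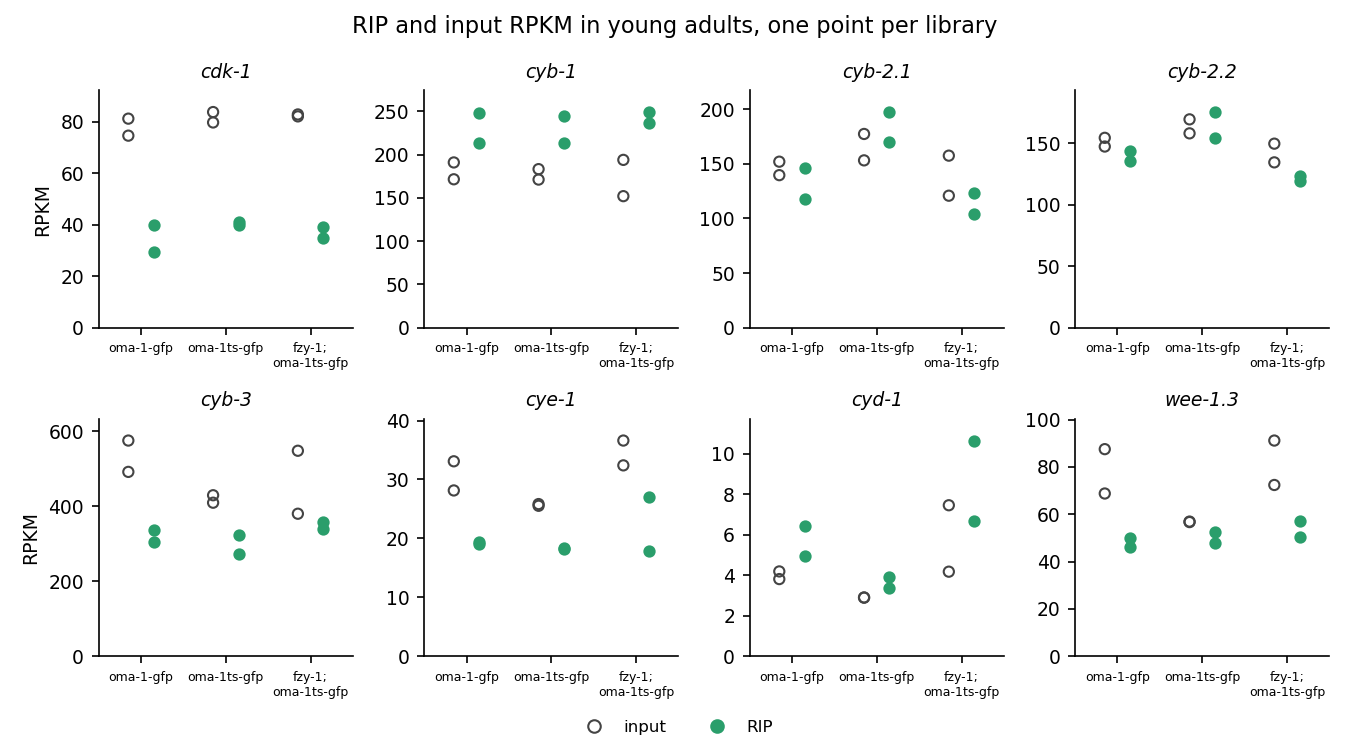
RPKM of the 8 tested genes in each input (open circles) and RIP (filled circles) library of the 3 strains, each axis starting at 0. For *cdk-1* the RIP libraries lie between 29.2 and 41.2 RPKM and the inputs between 74.6 and 83.8.

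*cdk-1* held 81.2 and 74.6 RPKM in the *oma-1-gfp* inputs and 39.7 and 29.2 in its RIP libraries. In *oma-1ts-gfp* the inputs held 79.7 and 83.8 RPKM and the RIP 41.2 and 39.9, and in *fzy-1;oma-1ts-gfp* the inputs held 82.8 and 82.1 and the RIP 39.2 and 34.6. The groups did not overlap in any strain, and the 6 inputs lay within 10 RPKM of each other. The log2 fold changes were -1.17 (SE 0.28, adjusted p = 0.0113, limma), -0.99 (SE 0.11, adjusted p = 0.000427, just short of the fold threshold) and -1.14 (SE 0.28, adjusted p = 0.0116). With each library centred on its median they were -0.86, -0.62 and -0.77, and none was called. In *oma-1-gfp* the call also ended without either input (adjusted p 0.111 and 0.157, limma), without RIP replicate 2 (-0.95) and with no filter on low RPKM (adjusted p = 0.0504, limma), in *fzy-1;oma-1ts-gfp* it ended without either input (adjusted p = 0.0948, limma), and in *oma-1ts-gfp* *cdk-1* was called without input replicate 1 (-1.03) or RIP replicate 1 (-1.01).

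Somatic markers were also lower in the RIP. The summed level of 5 yolk and intestine markers, for example, was 777 to 869 RPKM in the *oma-1-gfp* inputs and 226 to 339.8 in the RIP, and that of 8 oocyte markers 1283 to 1488 in the inputs and 2250 to 2301 in the RIP. The part of these in the values of *cdk-1* was not tested.

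*cyb-1* lay above its input in each strain without overlap. It held 191 and 172 RPKM in the *oma-1-gfp* inputs and 248 and 214 in the RIP, 183 and 171 against 214 and 245 in *oma-1ts-gfp*, and 194 and 152 against 236 and 249 in *fzy-1;oma-1ts-gfp*. The log2 fold changes were 0.35 (SE 0.30), 0.37 (SE 0.13, adjusted p = 0.0415, limma) and 0.50 (SE 0.33), so it passed by adjusted p in *oma-1ts-gfp* alone and passed the fold threshold nowhere. In the other strains the limma test gave adjusted p = 0.369 and 0.244. After centring the values were 0.65, 0.74 and 0.87.

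*cyb-3* lay below its input. Its RIP libraries held 305 and 337 RPKM against inputs of 575 and 492 in *oma-1-gfp*, 271 and 323 against 429 and 409 in *oma-1ts-gfp*, and 339 and 358 against 548 and 379.9 in *fzy-1;oma-1ts-gfp*. The log2 fold changes of -0.73 (SE 0.33, adjusted p = 0.103), -0.50 (SE 0.14, adjusted p = 0.0182) and -0.39 (SE 0.37, adjusted p = 0.42, all limma) did not reach the fold threshold, and the one that passed by adjusted p stood at -0.13 after centring. The B-type cyclins thus spread on both sides of their inputs. *cyb-1* lay above its input, *cyb-3* below, and *cyb-2.1* (-0.15, 0.15 and -0.28) and *cyb-2.2* (-0.11, 0.0080 and -0.22) near 0, where centring turned their negative values to between 0.087 and 0.19. The differences between these genes were not tested.

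*wee-1.3*, a regulator of oocyte arrest, held 46.2 and 49.8 RPKM in the RIP of *oma-1-gfp* against 87.5 and 68.8 in the input, 52.4 and 47.9 against 56.9 and 56.7 in *oma-1ts-gfp*, and 50.3 and 57.2 against 91.2 and 72.4 in *fzy-1;oma-1ts-gfp*. Its RIP level was close in the 3 strains, and the inputs differed more. The log2 fold changes were -0.68 (SE 0.27, adjusted p = 0.0742), -0.18 (SE 0.12, adjusted p = 0.235, and 0.19 after centring) and -0.59 (SE 0.29, adjusted p = 0.131, all limma), none of which passed.

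*cye-1* held 19.4 and 18.99 RPKM in the RIP of *oma-1-gfp* against 33.1 and 28.1 in the input, with log2 fold changes of -0.64 (SE 0.26), -0.47 (SE 0.13) and -0.62 (SE 0.30) in the 3 strains, of which the second passed by adjusted p (0.0178, limma) and stood at -0.10 after centring. *cyd-1*, at 2.89 to 10.7 RPKM over the 12 libraries the lowest of the tested genes, stood at 0.41 (SE 0.28), 0.25 (SE 0.22) and 0.52 (SE 0.34). In *fzy-1;oma-1ts-gfp* its RIP (6.70 and 10.7 RPKM) and input (4.17 and 7.46) overlapped. By adjusted p alone, *oma-1ts-gfp* had 1 gene higher (*cyb-1*) and 3 lower (*cdk-1*, *cyb-3* and *cye-1*), beside 15.4% and 39.0% of all genes. After centring it had 4 higher (*cyb-1*, *cyb-2.1*, *cyb-2.2* and *cyd-1*) and 1 lower (*cdk-1*), beside 27.8% and 23.6%. Each other strain had 1 lower (*cdk-1*), beside 27.7% of all genes in *oma-1-gfp* and 28.2% in *fzy-1;oma-1ts-gfp*.

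**Figure D5:**
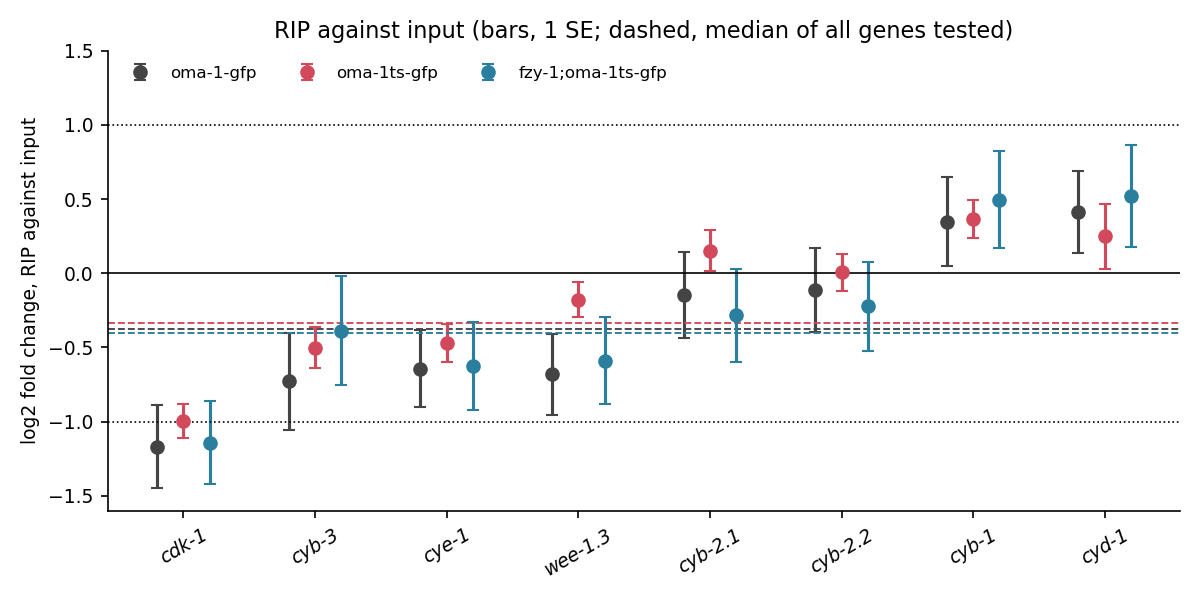
Log2 fold change of RIP against input for the 8 tested genes in the 3 strains (bars, 1 SE), with the median of all genes tested in each strain dashed and the thresholds of -1 and 1 dotted. *cdk-1* stands at -1.17, -0.99 and -1.14, and *cyb-1* and *cyd-1* lie above 0 in each strain.

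Whether P240L or *fzy-1(D433N)* changed the capture of these mRNAs was tested as a difference of enrichment in one limma fit of the 12 libraries. None of the 8 genes passed in either comparison. Of all genes, 1.26% and 3.87% were called higher and lower in *oma-1ts-gfp* minus *oma-1-gfp*, and 5.86% and 3.6% in *fzy-1;oma-1ts-gfp* minus *oma-1ts-gfp*. An unadjusted p under 0.05 was found for 0 of the 8 in each, beside 2432 and 3089 of the 11736 genes tested. *wee-1.3* had the largest difference for P240L (0.50, SE 0.28, adjusted p = 0.344, limma) and stood at -0.41 (SE 0.28, adjusted p = 0.388, limma) for *fzy-1*. *cyb-2.1* stood at -0.44 (SE 0.31) for *fzy-1*, and the other values lay between -0.23 and 0.30. For *cdk-1* the differences were 0.17 (SE 0.27) and -0.15 (SE 0.27). Both comparisons use the *oma-1ts-gfp* libraries, so their opposite signs for a gene are not independent.

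Between the inputs of the strains, none of the 8 genes passed in limma either. In *oma-1ts-gfp* against *oma-1-gfp*, 1 had an unadjusted p under 0.05, *wee-1.3* (-0.44, SE 0.18, adjusted p = 0.173), beside 2768 of the 10946 genes tested. Of all genes, 3.72% were called higher and 2.38% called lower. In *fzy-1;oma-1ts-gfp* against *oma-1ts-gfp* there were 3, *cyd-1* (0.76, SE 0.25, adjusted p = 0.0665), *wee-1.3* (0.51, SE 0.18, adjusted p = 0.082) and *cye-1* (0.41, SE 0.15, adjusted p = 0.0867), beside 3931 of the 10946 genes tested. Here 7.99% of all genes were called higher and 2.49% lower. Of 18 tested regulators of the cell cycle CDKs, 2 were called higher and 0 lower in this comparison. With centring these were 1 and 0, beside 585 and 468 of the 10946 genes. Without input replicate 1 of *fzy-1;oma-1ts-gfp*, *cyd-1* was called higher (1.119, adjusted p = 0.00602, limma). *cdk-1* differed by 0.070 (SE 0.13) and 0.013 (SE 0.13) in these 2 comparisons, the latter -0.22 after centring. Summed sperm markers moved with strain in the same inputs, at 3.81 to 4.04 RPKM in *oma-1-gfp*, 21.0 to 21.2 in *oma-1ts-gfp* and 89.9 to 205 in *fzy-1;oma-1ts-gfp*, and their part in these values was not tested.

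Of the regulators of the cell cycle CDKs, *cdc-25.3*, which encodes a CDC25 phosphatase, was called higher in the RIP of each strain, with 39.2 and 45.0 RPKM in the *oma-1-gfp* input and 139 and 193 in the RIP (1.94, SE 0.29), and log2 fold changes of 1.35 and 1.64 in the other 2 strains. *plk-3* was called higher in *oma-1-gfp* (1.52) and *fzy-1;oma-1ts-gfp* (1.09). *cdc-25.2* was called lower in each strain (-1.17, -1.09 and -1.21), at 1.26 to 4.94 RPKM in the RIP libraries, and *cdc-25.1* in *oma-1-gfp* alone (-1.01), but with centring all 4 of these values lay between -0.70 and -0.87. In *oma-1ts-gfp*, *plk-2* was called lower (-1.41), with means of 19.1 RPKM in the input and 6.58 in the RIP. It was the 1 regulator still called lower there with centring (-1.04). Among the other cyclins and CDKs, *cyy-1* was called higher in *fzy-1;oma-1ts-gfp* (1.18, and 1.56 with centring). In *oma-1-gfp* 2 of the 18 tested regulators were called higher and 3 lower, and of the 14 other cyclins and CDKs 0 were called higher and 3 lower, among them *cit-1.1* (-1.40), a cyclin T gene, beside 9.12% and 19.4% of all genes. With centring, 2 regulators were called higher and 0 lower, and 0 and 1 of the other cyclins and CDKs were, beside 14.1% and 9.84% of all genes. In *oma-1ts-gfp*, 1 regulator was called higher and 2 lower, and 0 and 1 of the others, beside 6.32% and 21.2%. In *fzy-1;oma-1ts-gfp*, these were 2 and 2 of 19 regulators and 1 and 2 of the others, beside 9.14% and 21.0%. With centring, *oma-1ts-gfp* had 2 regulators higher and 1 lower, beside 1221 and 1088 of 9761 genes. *fzy-1;oma-1ts-gfp* then had 2 and 0 regulators, beside 1591 and 1030 of 10849.

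Over the 12 RIP and input libraries, likeness was measured as the root mean square difference of log2(RPKM + 1) after centring each gene on its mean, among 4683 genes with at least 10 RPKM. The genes most like *cdk-1* were *chpf-1* (0.109), *sdhb-1* (0.122) and *met-1* (0.123), and those most like *wee-1.3* were *nkb-1* (0.0890), *kin-4* (0.117) and *rsd-2* (0.117). Among the members, *cye-1* ranked 6 for likeness to *wee-1.3* (0.132) and *cyb-3* ranked 14 (0.161), whereas the nearest member to *cdk-1* was *cye-1*, at rank 847 (0.359). These ranks describe the libraries, which share strains and preparation.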

How the data were processed

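Embryo mRNA-seq (3 genotypes) and young adult RIP-seq (3 strains, RIP and input) were analysed. According to the methods and the submitters' processing notes, the authors mapped embryo reads by HISAT2 (2.0.5), counted them by HTSeq (0.6.0) and deposited whole counts per gene, not normalized. Of 9 labelled embryo samples, 6 library columns were used, 2 per genotype, not tied to replicate numbers. For RIP-seq the authors deposited RPKM values on a scale 1000 times larger, here divided by 1000. The depth behind them is unknown, since whole reads could not be recovered. Germline classes are those the authors deposited. A further 32 per-sample columns and the authors' own fold changes and p-values were left out. The genome build is not given in the sources used here, so coordinates and exon lengths are from the WBcel235 annotation, matched by gene identifier.

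Embryo counts were fitted for 2 genotypes at a time by edgeR 4.0.16 (R 4.3.3), with TMM scaling, the quasi-likelihood test and Benjamini-Hochberg adjusted p-values, over genes reaching 10 counts in 2 or more libraries. RPKM values were fitted by limma 3.58.1 with a trended prior on log2(RPKM + 1), a scale that understates changes of low genes, over genes reaching 1 RPKM in 2 or more libraries. A call needed an adjusted p under 0.05 and a log2 fold change past 2 (embryos) or 1 (RIP-seq). DESeq2 1.42.0, other scalings and filters, a pseudocount of 0.1, other fits and leaving out single libraries were alternatives. The tests were checked on simulated data with 200 changed genes. Apart from these genes the simulated libraries shared the same mean levels, so recovery does not bear on the choice of scaling. Of changes of 3 on the log2 scale, edgeR recovered 100% for *oma-1(zu405)* against N2. It recovered 18.5% for the double mutant against N2 and 8% against *oma-1(zu405)*. DESeq2 recovered 100%, 59% and 60.5%, with 0, 31 and 37 false calls. Of changes of 2, limma recovered 50%, 83% and 41% for RIP against input in the 3 strains in turn. For differences of enrichment it recovered 73% and 69%, and for inputs 91.5% and 91%. A count of 0 allows at most 0.159 to 0.833 CPM (3 counts), and this and all intervals cover counting error only. Every member is named. Of the 2 further lists some of the genes called or acting directly on the members are named, so not every call is given by name. Members and lists were chosen with earlier results of these data known.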

Additional observations from a re-analysis of the deposited data

Results flagged for a closer look

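*cki-2*, a CDK inhibitor gene, was the one gene among the members and the 2 further lists whose RIP enrichment differed between strains by the test of the difference itself. It held 38.3 and 40.9 RPKM in the *oma-1ts-gfp* inputs and 53.8 and 59.6 in the RIP, but 49.8 and 30.9 against 24.5 and 23.2 in *fzy-1;oma-1ts-gfp*, and the enrichment was lower by -1.204 on the log2 scale (SE 0.35, adjusted p = 0.0493, limma). It was thus 1 of 19 regulators tested in that comparison, where 3.6% of all genes were called lower and 5.86% higher. For *oma-1ts-gfp* minus *oma-1-gfp*, where the inputs held 57.2 and 39.1 RPKM and the RIP 26.1 and 27.4, the difference was 1.31 (SE 0.35, adjusted p = 0.0507, limma). Both use the same *oma-1ts-gfp* libraries.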

How the results depend on the processing

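No paired analysis was possible because the embryo columns carry no replicate numbers of the labels. In the RIP-seq, same-numbered RIP and input libraries deviated together with correlations of 0.0812, 0.0335 and 0.273, so the numbers were not taken to pair them, and a replicate block changed no call of a member by both thresholds (*cdk-1* in *oma-1-gfp* stayed 1 call). By adjusted p alone the block did change counts. In *fzy-1;oma-1ts-gfp* the genes lower in the RIP went from 3055 to 3991 of 10849. The 5 calls in *oma-1(zu405)* against N2 fell to 0 with total counts and to 0 in one fit of all 6 libraries, where 0.0% of all genes were called. The call of *cdk-1* in *oma-1-gfp* fell to 0 without a filter on RPKM and to 0 with centring on the median, that in *fzy-1;oma-1ts-gfp* to 0 with centring, and a pseudocount of 0.1 gave 1 call in *oma-1ts-gfp*. Leaving out single libraries gave 3 to 5 calls for *oma-1(zu405)* against N2, 0 for the double mutant against N2, 0 to 3 against *oma-1(zu405)*, 0 to 1 for RIP against input in each strain, 0 for both differences of enrichment, 0 for the inputs of *oma-1ts-gfp* against *oma-1-gfp* and 0 to 1 for those of *fzy-1;oma-1ts-gfp* against *oma-1ts-gfp*. Total counts gave -1.12, -0.91 and -0.33 for *cdk-2*, *cya-1* and *cye-1* in *oma-1(zu405)* against N2, and -0.42, -0.60, -0.043, -0.26, -0.38, -0.34 and -0.43 for *cdk-1*, *cdk-2*, *cyb-1*, *cyb-2.1*, *cyb-2.2*, *cyd-1* and *wee-1.3* in the double mutant against N2. *cdk-2* stood at -0.024 with 10 counts in 3 libraries in *oma-1(zu405)* against N2, and *wee-1.3* at -0.053 without a filter in the double mutant against N2. Centring gave 0.16 and 0.19 for *cyb-2.1* and *cyb-2.2* in *oma-1-gfp*, 0.19 for *wee-1.3* in *oma-1ts-gfp*, 0.087 and 0.15 for *cyb-2.1* and *cyb-2.2* in *fzy-1;oma-1ts-gfp*, and -0.22 and -0.11 for *cdk-1* and *cyb-3* between the inputs of *fzy-1;oma-1ts-gfp* and *oma-1ts-gfp*. Without single libraries, values ranged from -0.10 to 0.27 (*cdk-2*) in *oma-1(zu405)* against N2. In the double mutant against N2 they ranged from -0.67 to 1.53 (*cdk-2*), -1.25 to 0.047 (*cya-1*), -0.054 to 1.58 (*cyb-2.1*), -0.058 to 1.33 (*cyb-2.2*), -1.48 to 0.27 (*cye-1*), -0.17 to 0.61 (*cyd-1*) and -0.96 to 0.61 (*wee-1.3*), and against *oma-1(zu405)* from -0.68 to 1.58 (*cdk-2*). RIP against input ranged from -0.30 to 0.0086 (*cyb-2.1*, *oma-1-gfp*) and -0.083 to 0.10 (*cyb-2.2*, *oma-1ts-gfp*). The difference of enrichment for P240L ranged from -0.039 to 0.39 (*cdk-1*), -0.087 to 0.13 (*cyb-1*) and -0.33 to 0.00095 (*cyd-1*), and that for *fzy-1* from -0.046 to 0.30 (*cyb-1*), -0.15 to 0.38 (*cyb-3*), -0.44 to 0.13 (*cye-1*) and -0.085 to 0.62 (*cyd-1*). Inputs ranged from -0.11 to 0.046 (*cyb-1*, *oma-1ts-gfp* against *oma-1-gfp*), and from -0.022 to 0.048 (*cdk-1*), -0.22 to 0.13 (*cyb-1*) and -0.14 to 0.39 (*cyb-3*) for *fzy-1;oma-1ts-gfp* against *oma-1ts-gfp*. The causes were not tested. With D1 shallow and unlike D3, standard errors in the double mutant against N2 were 0.52 to 1.05, which limits the changes that could be detected there.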
